A study of Mus musculus with 4 samples.

Results

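Cd74, H2-Aa, H2-Ab1 and H2-Eb1 are the MHC class II genes followed here, taken as the 4 rows of those names among the 22376 genes listed in any of the deposited tables. H2-Aa and H2-Ab1 encode the α and β chains of I-A, H2-Eb1 encodes the β chain of I-E, and Cd74 encodes the invariant chain, which holds the peptide groove shut until the complex reaches an endosome. The 4 genes were chosen with the results of GqCNO mice against controls in the SN and VTA known, so that contrast is given for them as a description. No p is printed for it, and nothing is read from how many of them passed a threshold in it. The tests below concern other regions, other groups of mice and other genes.

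Spatial transcriptomes (Visium) came from 3 groups of homozygous DATiCre male mice of 3 to 4 months, which express Cre recombinase in dopamine neurons under the dopamine transporter locus. GqCNO mice (n = 3; animals 781, 801 and 804) had received a Cre-dependent AAV for the excitatory receptor hM3Dq fused to mCherry in both midbrain hemispheres and then drank its ligand CNO at 300 mg/L in 2% sucrose for 1 week. GqVeh mice (n = 3; 784, 785 and 802) had the same virus and drank sucrose alone, and CNO alone mice (n = 2; C1W7 and C2W2) drank CNO without an injection. All were housed singly with a running wheel, and GqVeh and CNO alone mice together are called the 5 controls. The 10 µm sections lay on 4 arrays. One midbrain and one striatal array carried 801, 804, 802 and C2W2, and the other pair carried 781, 784, 785 and C1W7. Capture discs had been assigned to the substantia nigra (SN), ventral tegmental area (VTA) and thalamus in the midbrain, and to the caudoputamen (CP), lateral septal complex (LSX) and white matter in the striatal sections. GqCNO mouse 801 had no thalamus column, which left 47 columns.

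MHC class II molecules display peptides from engulfed protein to CD4 T cells. In the brain they are scarce at rest and are known chiefly from microglia, border macrophages and infiltrating leukocytes, where interferon-γ raises them through the coactivator Ciita. Mice of the C57BL/6 haplotype make H2-Eb1 mRNA but no I-E protein, because the partner gene H2-Ea lacks its promoter. H2-Ea is not reported here. A disc covers several cells of different types, so fewer positive cells and less RNA per cell cannot be told apart. When the regions were drawn, discs rich in the microglial markers Aif1 and P2ry12 or in the astrocyte markers Gfap and Aldh1l1 had been left out.

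In the mm10 genome H2-Ab1 (chr17:34263227-34269418), H2-Aa (chr17:34282744-34287823) and H2-Eb1 (chr17:34305867-34316674) stand side by side in the class II region, and Cd74 lies on another chromosome. Class II promoters share an X box and a Y box just before the start site, which bind RFX and NF-Y and recruit Ciita. The promoters below are shown because each carries an X box or a Y box in plain letters, and H2-Eb1 carries both. They are the 120 bases before the RefSeq start site (GRCm38.p6, the assembly of mm10), with matches to the X box pattern (AG, NN, AC, N and GATG joined, N being any base) and to the Y box CTGATTGG in capitals. H2-Aa is at chr17:34287824-34287943 on the minus strand, H2-Eb1 at chr17:34305747-34305866 on the plus strand and H2-DMb1, a chain of the peptide editor H2-DM, at chr17:34153071-34153190 on the plus strand.
H2-Aa: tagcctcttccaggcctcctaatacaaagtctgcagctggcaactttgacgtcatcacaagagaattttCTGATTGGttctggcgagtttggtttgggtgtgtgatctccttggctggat
H2-Eb1: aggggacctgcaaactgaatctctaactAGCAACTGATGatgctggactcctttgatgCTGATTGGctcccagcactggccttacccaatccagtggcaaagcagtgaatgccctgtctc
H2-DMb1: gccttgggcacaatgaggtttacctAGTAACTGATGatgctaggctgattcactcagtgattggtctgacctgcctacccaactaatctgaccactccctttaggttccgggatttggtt
The Y box match began 51 bases before the start in H2-Aa and 62 bases before it in H2-Eb1, and the X box match began 92 bases before it in H2-Eb1 and 95 bases before it in H2-DMb1. Over the 250 bases before all 32851 RefSeq starts, on both strands, CTGATTGG occurred in 3.83% of promoters and the X box pattern in 0.816%. The shorter ATTGG, which every CTGATTGG contains, occurred in 33.9% and stood alone 61 bases before the start of H2-DMb1 and 53 bases before that of the class I light chain B2m. H2-DMa, the other chain of H2-DM, and B2m matched neither CTGATTGG nor the X box pattern in that window and are not shown. No match says only that these letters are not in the window.

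Values are UMIs (molecules counted once) per 10000 UMIs of a column, that is, of 1 mouse and 1 region. Depth differed widely, between 7779 and 71906 UMIs over 1 to 7 discs in the SN, 25808 and 350222 over 2 to 49 discs in the VTA, 80837 and 444790 in the thalamus, 4300381 and 7977003 in the CP, 80525 and 1354667 in the LSX, and 119422 and 405313 in the white matter. Of all 54704200 UMIs, the class II genes held 927. Cd74 had 447 UMIs in 35 of the 47 columns, H2-Ab1 180 in 26, H2-Aa 150 in 22 and H2-Eb1 150 in 27. Mouse 781, GqCNO, held 62.4% of these UMIs and 14.6% of all UMIs, so the summed levels and the differences of the 4 genes in the SN and VTA are also given without it.

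In the VTA all 4 genes were higher in each GqCNO mouse than in any control, and mouse 781 stood far above the other 2 GqCNO mice. The genes had 326 UMIs together in GqCNO mouse 781, 41 in 801 and 16 in 804, against 13 in GqVeh mouse 784, 0 in 785 and 3 in 802, and 4 in CNO alone mouse C1W7 and 1 in C2W2. Their summed level was 36.6, 2.46 and 3.98 per 10000 in those GqCNO mice, against 0.638, 0 and 0.351 in GqVeh mice and 0.114 and 0.0343 in CNO alone mice. The 0 of GqVeh mouse 785 came from 2 discs with 25808 UMIs, where 3 UMIs would be 1.16 per 10000, a limit above several of the GqCNO values for single genes below. No overlap in this direction occurred in 3.36% of the 6312 genes tested there.

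Cd74, at chr18:60803849-60812652, had 158, 21 and 2 UMIs in the VTA of GqCNO mice 781, 801 and 804, against 9, 0 and 2 in GqVeh mice 784, 785 and 802, and 3 and 1 in CNO alone mice C1W7 and C2W2. As levels these were 17.8, 1.26 and 0.497 per 10000 in GqCNO mice, against 0.442, 0 and 0.234 in GqVeh mice and 0.0857 and 0.0343 in CNO alone mice. The lowest GqCNO mouse, 804, therefore lay just above the highest control, 784, on 2 UMIs against 9.

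H2-Aa, the I-A α chain, had the widest gap in measured levels between the groups in the VTA. It had 60, 12 and 5 UMIs in GqCNO mice 781, 801 and 804, against 1, 0 and 0 in GqVeh mice 784, 785 and 802 and none in either CNO alone mouse. The levels were 6.74, 0.719 and 1.24 per 10000 in GqCNO mice, with a highest measured control of 0.0491. The 0 of GqVeh mouse 785 has a Poisson interval reaching 1.43, above the levels of GqCNO mice 801 and 804. Mouse 785 can therefore not be placed below these GqCNO mice.

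H2-Ab1, the I-A β chain, had 60, 5 and 7 UMIs in GqCNO mice 781, 801 and 804, against 2, 0 and 1 in GqVeh mice 784, 785 and 802, and 1 and 0 in CNO alone mice C1W7 and C2W2. Its levels were 6.74, 0.300 and 1.74 per 10000 in GqCNO mice, against at most 0.117 in controls. H2-Eb1 had 48, 3 and 2 UMIs in GqCNO mice, against 1, 0 and 0 in GqVeh mice and none in CNO alone mice. Its levels were 5.39, 0.180 and 0.497 per 10000 in GqCNO mice, and its highest control was again GqVeh mouse 784 at 0.0491. Mouse 784 was the highest control for 3 of the 4 genes, with H2-Ab1 the exception.

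**Figure D1:**
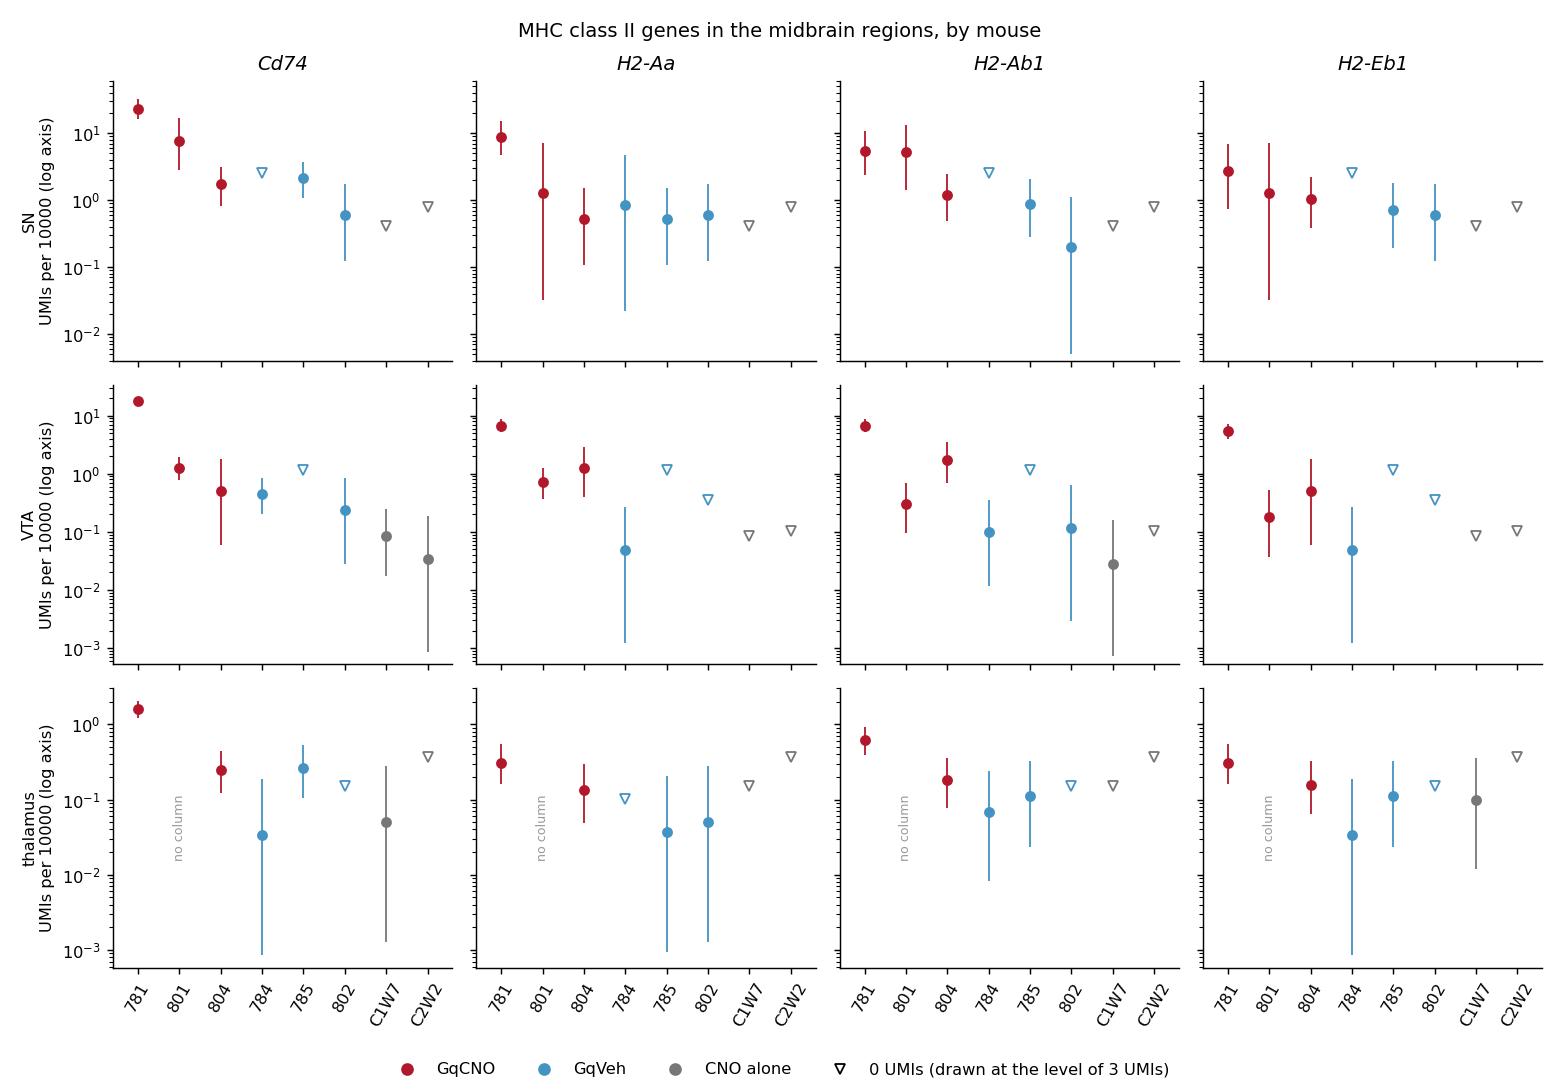
Level of each MHC class II gene (UMIs per 10000, log axis) in the SN, VTA and thalamus of each mouse, with exact 95% Poisson intervals that cover counting error only. Open triangles mark columns with 0 UMIs, drawn at the level that 3 UMIs would give. GqCNO mouse 781 is highest in all 12 panels, and in the VTA the 3 GqCNO mice lie above all measured controls.

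As group means the VTA differences were large and uneven. The summed level averaged 14.4 ± 19.3 per 10000 in GqCNO mice (SD, n = 3), against 0.228 ± 0.267 in the 5 controls, and without mouse 781 the remaining 2 GqCNO mice averaged 3.22 ± 1.08. Pooled over mice this was 383 UMIs in GqCNO and 21 in control columns, a ratio of levels of 58.9 (95% interval 38.0 to 96.3), and 12.5 (7.49 to 21.8) without mouse 781. These intervals cover counting error only, and UMIs of 1 mouse are not independent animals. On the log2(level + 0.5) scale of a limma fit over all genes the difference was 2.31 ± 0.56 for Cd74 (estimate ± SE), 2.29 ± 0.39 for H2-Aa, 2.10 ± 0.43 for H2-Ab1 and 1.64 ± 0.44 for H2-Eb1, beside a median of -0.06 over all genes. Cd74, H2-Aa and H2-Ab1 passed an adjusted p of 0.05, a call made for 1.2% of genes in this direction, and since the genes were picked on this contrast nothing is read from that count. It was 1 without mouse 781 (H2-Aa), 1 with a stricter filter, and 0 without a filter or by the methods' t-test. Without mouse 781 the differences were 1.52 ± 0.28 for H2-Aa, 1.29 ± 0.35 for H2-Ab1 and 1.05 ± 0.33 for Cd74, and H2-Eb1 fell under the filter on low values.

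The order of the groups within each pair of arrays follows from the lack of overlap in the VTA given above and adds no separate support. On the arrays without mouse 781, GqCNO mice 801 and 804 were above both of their controls for each of the 4 genes. On the other pair, 781 was above its 3 controls for each gene.

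In the SN the class II genes were again highest in mouse 781, but GqVeh mice carried them too and the groups overlapped for 2 of the 4. Their sum was 59, 12 and 26 UMIs in GqCNO mice 781, 801 and 804, against 1, 24 and 10 in GqVeh mice 784, 785 and 802 and 0 in both CNO alone mice. As a level this was 40.1, 15.4 and 4.46 per 10000 in GqCNO mice, against 0.859, 4.21 and 2.02 in GqVeh mice. The SN of GqCNO mice 781 and 801 was a single disc each, with 14717 and 7779 UMIs, so these values describe those discs.

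Cd74 had 34, 6 and 10 UMIs in the SN of GqCNO mice 781, 801 and 804, against 0, 12 and 3 in GqVeh mice 784, 785 and 802. Its levels were 23.1, 7.71 and 1.71 per 10000 in GqCNO mice, against 0, 2.11 and 0.605 in GqVeh mice. GqVeh mouse 785 was thus above GqCNO mouse 804. H2-Aa overlapped in the same way, with 8.83, 1.29 and 0.514 per 10000 in GqCNO mice on 13, 1 and 3 UMIs, against 0.859, 0.526 and 0.605 in GqVeh mice on 1, 3 and 3 UMIs.

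H2-Ab1 and H2-Eb1 did not overlap between GqCNO mice and controls in the SN, as was the case for 2.35% of the 6174 genes tested. H2-Ab1 had 8, 4 and 7 UMIs in GqCNO mice 781, 801 and 804, or 5.44, 5.14 and 1.2 per 10000, against 0, 5 and 1 UMIs in GqVeh mice 784, 785 and 802, or 0, 0.877 and 0.202 per 10000. H2-Eb1 had 4, 1 and 6 UMIs in GqCNO mice, or 2.72, 1.29 and 1.03 per 10000, against 0, 4 and 3 UMIs in GqVeh mice, or 0, 0.702 and 0.605 per 10000. The 0 of GqVeh mouse 784 came from 11644 UMIs, where 3 UMIs would be 2.58 per 10000, above both genes in GqCNO mouse 804 and H2-Eb1 in 801.

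The log2(level + 0.5) difference between GqCNO mice and the 5 controls in the SN was 3.21 ± 0.51 for Cd74, 2.55 ± 0.55 for H2-Ab1, 1.63 ± 0.55 for H2-Aa and 1.56 ± 0.57 for H2-Eb1 (SE), beside a median of -0.08 over all genes. Cd74 and H2-Ab1 passed an adjusted p of 0.05, as did 0.373% of genes in this direction. Nothing is read from that count either, which was 0 with a stricter filter and by the methods' t-test. Without mouse 781 the differences were 2.39 ± 0.60 for Cd74, 2.24 ± 0.62 for H2-Ab1, 1.24 ± 0.61 for H2-Eb1 and 0.70 ± 0.62 for H2-Aa. The summed level averaged 19.99 ± 18.2 per 10000 in GqCNO mice (SD, n = 3), 9.94 ± 7.76 without mouse 781, and 1.42 ± 1.77 in controls (n = 5). Against GqVeh mice alone, which share the virus, the SN differences were 2.74 ± 0.57 for Cd74, 2.29 ± 0.62 for H2-Ab1, 1.15 ± 0.62 for H2-Aa and 1.24 ± 0.63 for H2-Eb1. Without mouse 781 they were 1.92 ± 0.65 for Cd74, 1.98 ± 0.67 for H2-Ab1, 0.22 ± 0.67 for H2-Aa and 0.92 ± 0.67 for H2-Eb1. In the VTA the differences against GqVeh mice were 2.18 ± 0.62 for Cd74, 2.27 ± 0.44 for H2-Aa, 2.05 ± 0.48 for H2-Ab1 and 1.62 ± 0.49 for H2-Eb1, and without mouse 781 they were 0.92 ± 0.36 for Cd74, 1.5 ± 0.30 for H2-Aa and 1.23 ± 0.38 for H2-Ab1. These contrasts reuse the mice on which the genes were picked and are a description too.

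**Figure D2:**
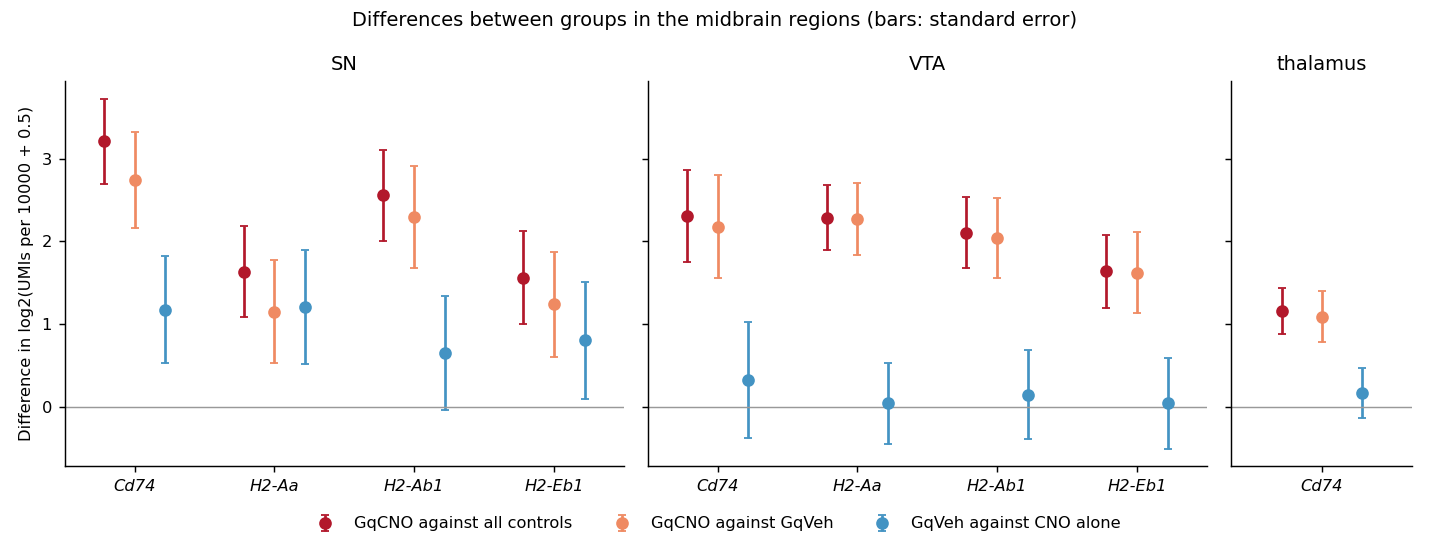
Difference between groups in log2(UMIs per 10000 + 0.5) from the limma fit over all genes, with standard errors, for the class II genes that passed the filter in each midbrain region. In the VTA every GqCNO difference lies between 1.62 and 2.31 and every GqVeh difference from CNO alone between 0.05 and 0.33, where all levels lie under the added constant of 0.5 and differences are held near 0 by the scale.

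GqVeh mice were set against CNO alone mice to compare the controls with each other. These groups differ both in virus and surgery and in CNO, whose parts cannot be told apart. In the SN the 3 GqVeh mice held 35 UMIs of the 4 genes and the 2 CNO alone mice 0 of 109747 UMIs, which allows a level of up to 0.273 per 10000. Pooled, GqVeh was at least 10.8-fold higher than that limit of 3 UMIs over the group. The mice were less uniform than this, since 24 of the 35 UMIs came from mouse 785 and 1 from mouse 784. H2-Aa was the one gene with a UMI in every GqVeh mouse and none in CNO alone mice, a separation seen in 7.79% of all genes tested in the SN.

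The class II genes that passed the filter were the 4 in the SN and VTA and Cd74 in the thalamus. None was called between GqVeh and CNO alone mice by limma. Among all genes 4 of 6174 (0.0648%) were called in the SN and 5 of 6312 (0.0792%) in the VTA, all higher. The filter used the mean over all mice, GqCNO mice included. In the VTA the control mean was 0.159 for Cd74, 0.049 for H2-Ab1 and 0.0098 for H2-Aa and H2-Eb1 each. In the thalamus it was 0.0689 for Cd74, and in the SN 0.216 for H2-Ab1. All of these lie under the filter of 0.25, so these genes were tested through their levels in GqCNO mice. For them the lack of a call does not show that the controls are alike. The SN differences were 1.18 ± 0.64 for Cd74, 1.21 ± 0.69 for H2-Aa, 0.80 ± 0.71 for H2-Eb1 and 0.65 ± 0.69 for H2-Ab1, each with an adjusted p of 1 and none under an unadjusted p of 0.05. edgeR on the recovered UMIs gave all 4 an unadjusted p under 0.05 in the SN and no adjusted call, with 0.0602 for Cd74 as the lowest adjusted p. In the VTA the limma differences were 0.33 ± 0.70 for Cd74, 0.15 ± 0.54 for H2-Ab1, 0.05 ± 0.49 for H2-Aa and 0.05 ± 0.55 for H2-Eb1. Levels of at most 0.442 in these mice lie under the added constant of 0.5, which holds such differences near 0, and edgeR gave 2.30 for Cd74 with an adjusted p of 0.998. There the 3 GqVeh mice held 16 UMIs and the 2 CNO alone mice 5, a pooled ratio of 6.52 (95% interval 2.28 to 22.7, counting error only).

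In that comparison 2 of 6 class I genes were called in the SN and 3 of 6 in VTA columns. B2m, the light chain of class I, was 2.94 ± 0.38 higher on the log2 scale in the SN (adjusted p = 7.52e-11, limma) and 2.39 ± 0.38 higher in the VTA (adjusted p = 0.0127), and the heavy chain H2-K1 was 2.54 ± 0.53 higher in the SN (adjusted p = 0.00367) and 2.02 ± 0.39 higher in the VTA (adjusted p = 0.0469). H2-D1 was called in the VTA (2.20 ± 0.39, adjusted p = 0.0202) and reached 1.84 ± 0.49 in the SN (adjusted p = 0.137). Whether class I and class II genes differed in this response was not tested.

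The thalamus was not used to choose the genes. Only Cd74 passed the filter there, through its level in GqCNO mice, and its difference was not called. Cd74 had 62 and 11 UMIs in GqCNO mice 781 and 804, against 1, 7 and 0 in GqVeh mice 784, 785 and 802, and 1 and 0 in CNO alone mice C1W7 and C2W2. Its levels were 1.60 and 0.247 per 10000 in GqCNO mice, against 0.0337, 0.261 and 0 in GqVeh mice and 0.05 and 0 in CNO alone mice, so GqVeh mouse 785 lay above GqCNO mouse 804. The difference was 1.16 ± 0.28 with an adjusted p of 0.998 (limma, GqCNO n = 2, controls n = 5). No gene of 6399 was called in this region by limma or edgeR, a share of 0%, with 214 under an unadjusted p of 0.05 by limma and 305 by edgeR. With mouse 781 as the only GqCNO animal the Cd74 difference was 1.90, from a fit in which the lone mouse is assumed to vary like the other groups.

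H2-Aa, H2-Ab1 and H2-Eb1 were below the filter in the thalamus, yet both GqCNO mice lay above all 5 controls for each of them. H2-Aa had 12 and 6 UMIs in GqCNO mice 781 and 804, against 2 in the 5 controls together. H2-Ab1 had 24 and 8 in those GqCNO mice, against 5 in controls, and H2-Eb1 had 12 and 7, against 6 in controls. An exact two-sided permutation test over the 7 mice gave p = 0.0952 for each of the 3, the smallest that 21 splits allow, and p = 0.190 for Cd74. Among the genes that passed the filter 3.67% had no overlap in this direction. The share among genes below the filter, where these 3 lie, was not counted. The summed level in the thalamus was 2.84 and 0.719 per 10000 in GqCNO mice, against 0.171 ± 0.205 in controls (SD, n = 5), and within mouse 781 it was far below the 40.1 of its SN and the 36.6 of its VTA.

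At the striatal level the class II genes were at the edge of detection, and no gene of the 4 passed the filter of 0.05 per 10000. In the CP, where 4300381 or more UMIs lay behind each column, Cd74 had 36, 2 and 11 UMIs in GqCNO mice 781, 801 and 804, against 8, 6 and 3 in GqVeh mice 784, 785 and 802 and 10 and 9 in CNO alone mice C1W7 and C2W2. This was 0.0291 ± 0.0271 per 10000 in GqCNO mice (SD, n = 3), against 0.0132 ± 0.00626 in controls (n = 5; exact two-sided permutation p = 0.321). Mouse 781 was highest at 0.0578, while GqCNO mouse 801 at 0.00399 was the lowest of all 8.

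The other genes overlapped in the CP as well. H2-Ab1 had 19, 0 and 2 UMIs in GqCNO mice 781, 801 and 804, against 5, 5 and 1 in GqVeh mice 784, 785 and 802, and 3 and 2 in CNO alone mice C1W7 and C2W2 (exact permutation p = 0.679). H2-Aa had 8, 0 and 3 UMIs in GqCNO mice, against between 1 and 7 in each control (p = 0.786, exact permutation), and H2-Eb1 had 11, 3 and 2, against between 2 and 11 (p = 0.893, exact permutation). The smallest p that 56 splits of 8 mice allow is 0.0357. Pooled over the 4 genes, GqCNO and control columns held 97 UMIs each, in 15539243 and 28254213 UMIs, a ratio of levels of 1.82 (95% interval 1.36 to 2.44), but 0.720 (0.436 to 1.14) without mouse 781.

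**Figure D3:**
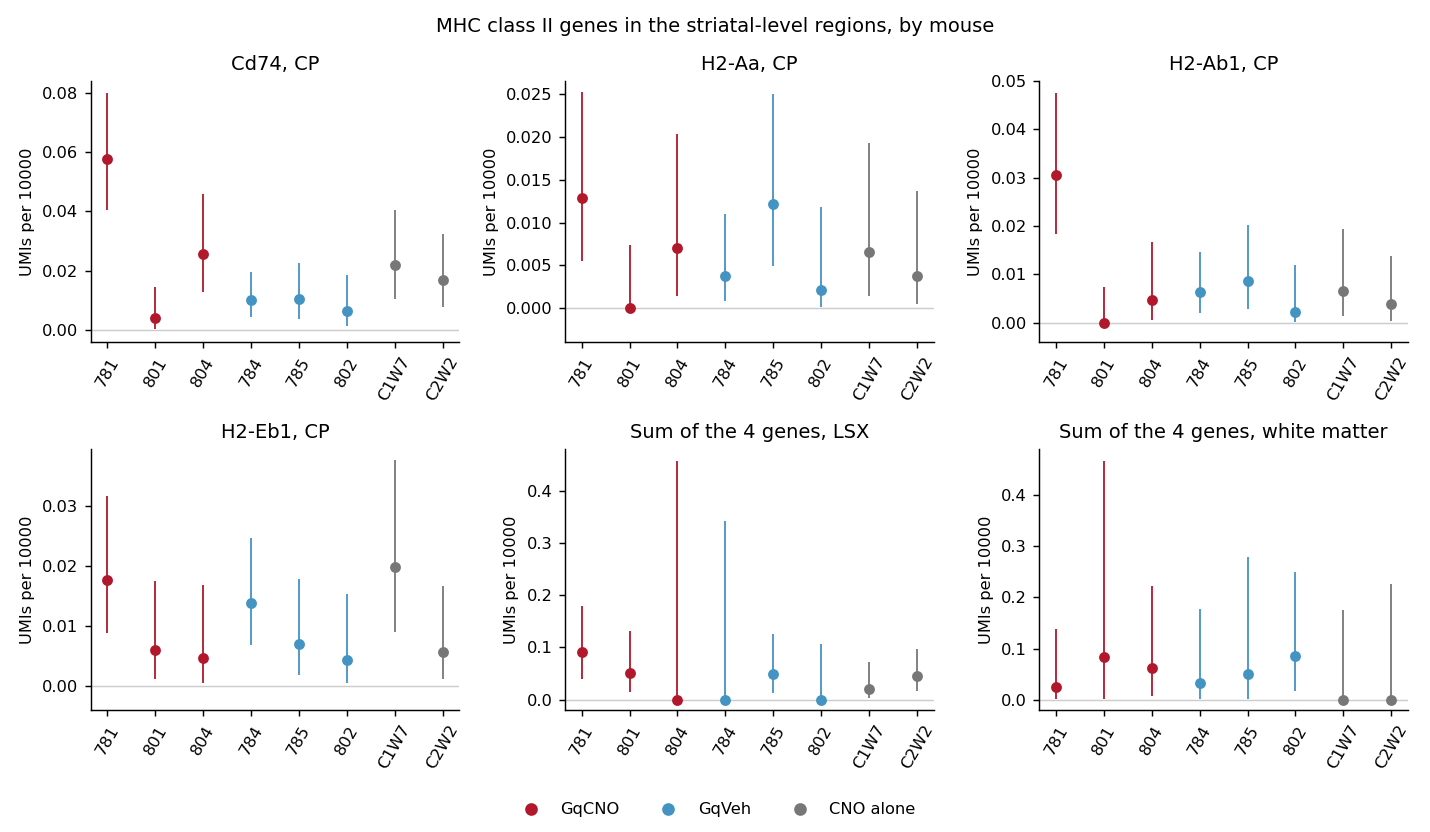
Level of each class II gene in the CP and of their sum in the LSX and white matter (UMIs per 10000, linear axes), by mouse, with exact 95% Poisson intervals that cover counting error only. Mouse 781 is highest for Cd74, H2-Aa and H2-Ab1 in the CP, where CNO alone mouse C1W7 exceeds it for H2-Eb1, and the groups overlap in every panel.

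LSX and white matter columns held few class II UMIs. In the LSX the GqCNO mice had 12 together, 8 of them in mouse 781 and none in 804, against 4 in GqVeh mice, all in 785, and 8 in CNO alone mice. H2-Aa had none in any LSX column. In the white matter GqCNO mice had 4, GqVeh mice 5 and CNO alone mice 0 of 373516 UMIs, which allows up to 0.0803 per 10000. Exact two-sided permutation tests in these 2 regions gave p between 0.179 and 1, and no difference was detectable at this depth. Over the thalamus, CP, LSX and white matter 14 such tests were made, with 0.0952 as the smallest p. Mouse 781, first in the other 5 regions for the summed level, was the sixth of 8 in the white matter with 1 UMI.

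Within the 5 controls, Cd74 was compared between midbrain regions with the mouse as a block. Its SN level was 0.542 ± 0.913 per 10000, its VTA level 0.159 ± 0.181 and its thalamus level 0.0689 ± 0.109 (SD, n = 5 each). By limma no neighbours in this order were called different, with log2 differences of 0.35 ± 0.27 for SN against VTA (adjusted p = 0.739, limma) and 0.19 ± 0.27 for VTA against thalamus (adjusted p = 0.723), while SN against thalamus gave 0.54 ± 0.27 (adjusted p = 0.183). edgeR called the last 2, with differences of 2.13 (adjusted p = 0.0157) for VTA against thalamus and 3.04 (adjusted p = 0.000483) for SN against thalamus, where edgeR called 16.7% and 9.97% of genes higher and limma 6.78% and 6.47%. Of the 6 genes of endosomal processing 5 were tested, and the proteases Ctsd, Ctsb, Ctsl and Ctss were called higher than in the thalamus in both the SN and the VTA. Levels in striatal and midbrain arrays were scaled separately, and the CP average of Cd74 in controls, 0.0132 ± 0.00626 per 10000, is set beside these without a test.

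Pooled over GqCNO mice, Cd74 gave the most UMIs of the 4 genes in each midbrain region and the CP. By mouse, H2-Ab1 with 7 UMIs and H2-Aa with 5 exceeded Cd74 with 2 in the VTA of 804. In the CP of 801 H2-Eb1 with 3 exceeded Cd74 with 2. UMIs tag the 3′ ends of transcripts and were not divided by length, so the shares below are of molecules counted. Cd74 made up 47.3% of the 383 UMIs of the 4 genes in the VTA of GqCNO mice (exact 95% binomial interval 42.2 to 52.4%), 51.5% of 97 in the SN (41.2 to 61.8%), 51.4% of 142 in the thalamus (42.9 to 59.9%) and 50.5% of 97 in the CP (40.2 to 60.8%). In controls the share was 71.4% of 21 UMIs in the VTA (47.8 to 88.7%), 42.9% of 35 in the SN (26.3 to 60.7%), 40.9% of 22 in the thalamus (20.7 to 63.6%) and 37.1% of 97 in the CP (27.5 to 47.5%). No region had 20 class II UMIs in every mouse, so the shares were not tested. GqCNO mouse 804 had the lowest Cd74 share among GqCNO columns of the VTA, with 2 of its 16 UMIs.

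**Figure D4:**
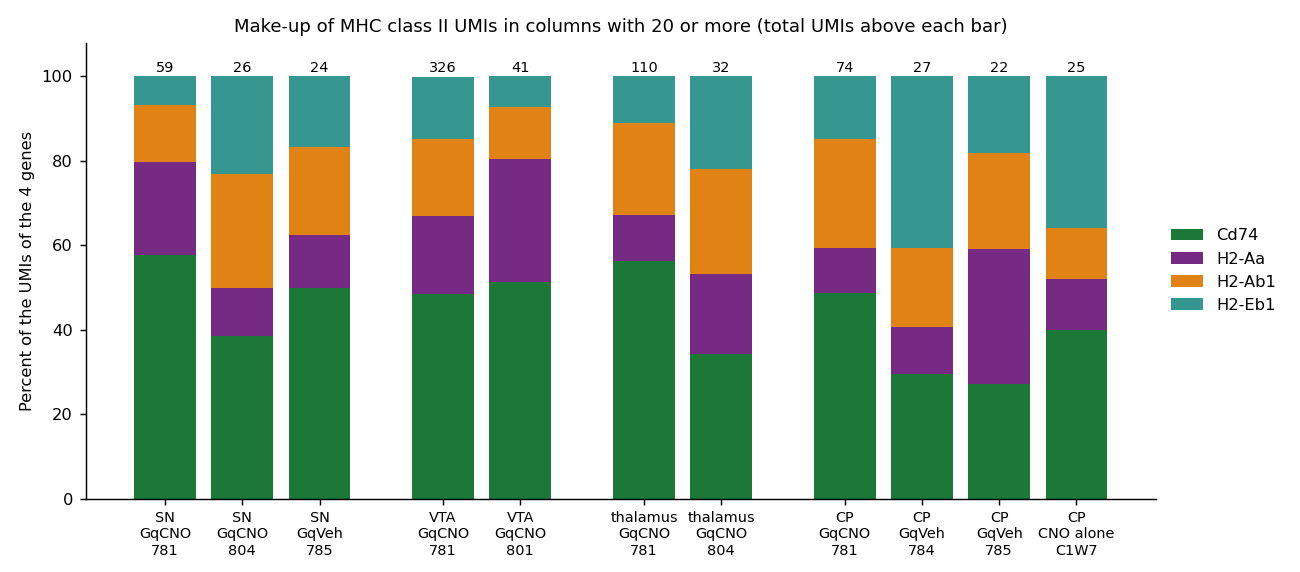
Percent of the UMIs of the 4 class II genes that came from each gene, for the 11 columns with at least 20 such UMIs. Numbers above the bars are those UMIs, and Cd74 makes up between 27.3% and 57.6% of each bar.

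Partner genes of the pathway were taken from lists chosen with earlier results known. Of the other class II chains only H2-DMa, a chain of the peptide editor H2-DM, passed the filter in the VTA, and it was not called. It had 5, 7 and 2 UMIs in GqCNO mice 781, 801 and 804, against 4, 1 and 0 in GqVeh mice 784, 785 and 802 and 2 and 4 in CNO alone mice C1W7 and C2W2. Its levels were 0.562, 0.420 and 0.497 per 10000 in GqCNO mice, against 0.196, 0.387 and 0 in GqVeh mice and 0.0571 and 0.137 in CNO alone mice. On these few UMIs each GqCNO mouse lay above every control, as was the case for 3.36% of the 6312 genes tested there. The highest control, 785, rested on 1 UMI. H2-DMb1, its partner, had 4, 3 and 1 UMIs in GqCNO mice, against 3 UMIs in the 5 controls together.

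Ciita, the coactivator of class II promoters, had 1 UMI each in SN and VTA of GqCNO mouse 804 and 1 in the thalamus of 781, and none in any other midbrain or CP column. At these depths it could not be compared. Of the 8 transcription factors of class II promoters, 2 were tested in each dopamine region and neither was called. Ifng, which encodes interferon-γ, had a single UMI in the midbrain, in the SN of GqCNO mouse 804.

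Among endosomal enzymes that trim antigen or the invariant chain, Ctsd and Ctss were called in the VTA of GqCNO mice against controls (2 of 6 genes tested, beside 1.2% of all genes) and Ctsd in the SN (1 of 6, beside 0.373%), on the contrast the class II genes were picked on. Ctss, cathepsin S, which cuts Cd74, had 21.8, 7.07 and 7.46 per 10000 in the VTA of GqCNO mice 781, 801 and 804, against 5.40, 0.775 and 6.09 in GqVeh mice 784, 785 and 802, and 0.6 and 0.618 in CNO alone mice. Ctss differed between GqVeh and CNO alone mice in the SN by 2.45 ± 0.52 on the log2 scale (adjusted p = 0.00367, limma; 0.0648% of genes called higher), with 10.3, 5.09 and 3.83 per 10000 in GqVeh mice 784, 785 and 802, against 0.556 and 0.793 in CNO alone mice. In the VTA the same comparison gave 1.73 ± 0.51 (adjusted p = 1).

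The class I genes were abundant in the same columns. In the VTA B2m was at 59.5, 19.4 and 39.0 per 10000 in GqCNO mice 781, 801 and 804, against 17.0, 6.59 and 12.3 in GqVeh mice 784, 785 and 802 and 1.37 and 2.16 in CNO alone mice. For each 100 UMIs of a list of 6 class I genes in the VTA there were 32.5, 6.12 and 5.02 class II UMIs in GqCNO mice 781, 801 and 804, against 2.21, 0 and 1.36 in GqVeh mice 784, 785 and 802 and 4.17 and 0.952 in CNO alone mice. Mouse 781 had the highest such ratio in the VTA, while in the thalamus it was 18.7 in mouse 781 and 27.8 in GqCNO mouse 804.

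The summed level of 12 microglial markers was higher in each GqCNO mouse than in any control in the VTA, and overlapped in the SN. In the VTA 6 of the 10 tested were called higher in GqCNO mice (beside 1.2% of all genes), and in the SN 2 of 11, the complement genes C1qa and C1qb (beside 0.373%), again on the contrast used for the choice. P2ry12 had no UMI in the SN of GqCNO mice. The summed level in the VTA was 71.5, 28.3 and 45.0 per 10000 in GqCNO mice 781, 801 and 804, against 21.4, 4.26 and 21.1 in GqVeh mice 784, 785 and 802 and 4.03 and 3.98 in CNO alone mice. For each 100 UMIs of that list there were 51.3, 8.69 and 8.84 class II UMIs in GqCNO mice, against 2.98, 0 and 1.67 in GqVeh mice and 2.84 and 0.862 in CNO alone mice. The part of microglial number in the class II levels was not tested. Dopamine neuron markers, some of which had served to choose the discs, were lower in the VTA, between 11.2 and 31.1 per 10000 in GqCNO mice and between 40.2 and 58.5 in controls, and overlapped in the SN, between 7.71 and 48.2 in GqCNO mice and between 27.5 and 61.0 in controls. Astrocyte markers ranged between 15.3 and 26.0 per 10000 in GqCNO mice and between 4.65 and 12.7 in controls in the VTA, with 2 of 6 called (Gfap and Aqp4), and between 14.3 and 32.1 in GqCNO mice and between 10.0 and 16.5 in controls in the SN, with 1 of 6 called (Gfap). Red blood cell genes were at 7.47, 32.1 and 27.1 per 10000 in the SN of GqCNO mice 781, 801 and 804, against between 0.202 and 18.5 in controls, with 3 of 4 tested called (Hba-a1, Hba-a2 and Hbb-bs). In the VTA they ranged between 1.91 and 47.7 in GqCNO mice and between 0.775 and 9.81 in controls, with none called. The part of these cells in the class II levels was not tested.

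**Figure D5:**
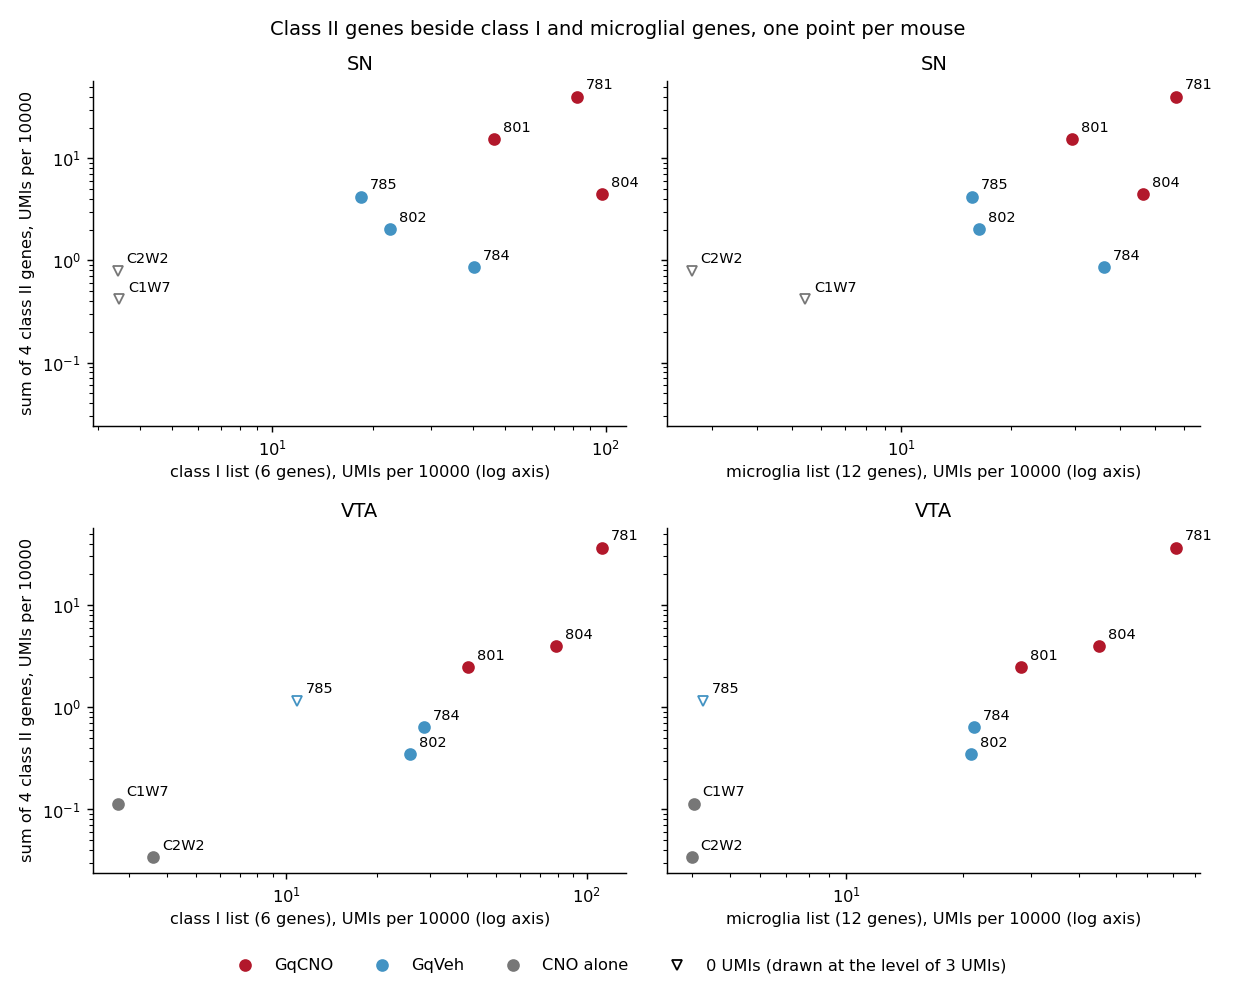
Summed level of the 4 class II genes against the summed level of 6 class I genes and of 12 microglial markers in the SN and VTA (UMIs per 10000, log axes), 1 point per mouse, open triangles for 0 class II UMIs drawn at the level of 3 UMIs. In the VTA GqVeh mice 784 and 802 lie at 21.4 and 21.1 on the microglial axis near GqCNO mouse 801 at 28.3, with class II sums of 0.638 and 0.351 against 2.46.

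In the SN the class II UMIs per 100 microglial UMIs were 70.2, 52.2 and 9.63 in GqCNO mice 781, 801 and 804, against 2.38, 27.0 and 12.3 in GqVeh mice 784, 785 and 802, and 0 in both CNO alone mice. GqCNO mouse 804, with 270 microglial UMIs in its SN, lay below GqVeh mice 785 and 802 in this ratio. GqVeh mouse 784 had a microglial level of 36.1 per 10000 in its SN, above GqCNO mouse 801 at 29.6, and 1 class II UMI.

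Markers of other antigen-presenting cells were sparse, and their part in the class II levels was not tested. Of the dendritic cell markers, 4 had a UMI in the VTA of GqCNO mice and 4 in controls, with summed levels between 0.249 and 1.01 per 10000 in GqCNO mice and between 0 and 0.234 in controls. Itgax, which encodes CD11c, had 7 UMIs in the VTA of mouse 781 and 1 in 801. Itgax and Ccr7 were seen in the VTA of GqCNO mice only, Xcr1 and Zbtb46 in that of controls only. Cd209a and Clec9a were seen in neither. In the SN Ccr7, Cd209a, Clec9a, Xcr1 and Zbtb46 had no UMI in any mouse, and Batf3 and Flt3 were seen in controls only. Border macrophage markers in the SN ranged between 0.343 and 2.04 per 10000 in GqCNO mice on 6 UMIs. In controls they ranged there between 0 and 0.529 on 2 UMIs. In the VTA these markers ranged between 0 and 0.337 in GqCNO mice and between 0.0343 and 1.16 in controls, with 4 and 5 of 8 genes seen. Cbr2, F13a1 and Mrc1 were seen in controls only, Lyve1 and Pf4 in GqCNO mice only, and Cd163 in neither. Monocyte markers ranged between 0.839 and 2.14 per 10000 in GqCNO mice and between 0.117 and 0.388 in controls, with 5 and 4 of 6 genes seen. Ly6c2 had 4, 9 and 5 UMIs in GqCNO mice 781, 801 and 804 and none in controls. Ccr2 was also seen in GqCNO mice only, and Chil3 in controls only. No overlap with GqCNO mice higher occurred in 3.36% of genes tested in the VTA.

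Immunoglobulin genes were concentrated in a single column. Of 6 B cell markers 2 had UMIs in the VTA of GqCNO mice, the immunoglobulin genes Ighm and Igkc, with 164 and 154 UMIs in mouse 801 alone. Ms4a1, Cd79a and Cd79b had none there, and the list ranged between 0.674 and 19.1 per 10000 in GqCNO mice and between 0 and 0.294 in controls. Mouse 801, with the highest immunoglobulin level, had a class II sum of 2.46 per 10000 in the VTA (Poisson interval 1.76 to 3.33). This interval overlaps that of GqCNO mouse 804, at 3.98 (2.27 to 6.46). The part of B cells in the class II levels was not tested. T cell markers ranged between 0.240 and 1.24 per 10000 in GqCNO mice and between 0 and 0.245 in controls in the VTA, with 7 and 5 of 8 genes seen and 10, 4 and 5 UMIs in GqCNO mice 781, 801 and 804, and Cd4 had no UMI in the SN, VTA or thalamus of any mouse. In the SN the T cell list ranged between 0 and 2.06 in GqCNO mice, highest in mouse 804, and between 0 and 0.176 in controls.

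The genes most like the class II sum across the 8 mice in the VTA, by Pearson correlation of log2 values over 6312 genes, were Cst7 (r = 0.991), Iigp1 (0.990), Cxcl10 (0.988), Irgm1 (0.967) and Itm2b (0.962). Cst7 encodes a cystatin raised in activated microglia, Iigp1 and Irgm1 encode interferon-induced GTPases, and Cxcl10 encodes an interferon-induced chemokine. Without mouse 781, Cst7, Iigp1, Cxcl10 and Irgm1 ranked 7, 12, 6 and 4 over the other 7 mice and Itm2b ranked 126. In the CP the closest of 10813 genes were Gm47283 (0.957), Ifi27 (0.952), AI480526 (0.949), Cyp2j6 (0.949) and Mro (0.949), of which AI480526 alone stayed among the first 5 without mouse 781, at rank 2. The points share libraries and depth, and r is given as a description.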

How the data were processed

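Visium v1 libraries of 4 arrays were aligned to mm10 with Space Ranger per the labels, with versions not given in the sources used here. The authors assigned discs to regions and deposited, per mouse and region, a median-normalized signal for each gene. In each of the 47 columns 100% of low values were whole multiples (tolerance 0.05 of a step) of 1 smallest value, so whole UMIs were recovered, and each column was rescaled to 10000. No column was left unused. The mouse was the replicate. limma 3.58.1 (R 4.3.3; trend, 3 group means) was fitted to log2(level + 0.5) in midbrain and log2(level + 0.05) in striatal regions, for genes with a mean of at least 0.25 or 0.05, with Benjamini-Hochberg adjustment over all genes. edgeR 4.0.16 (quasi-likelihood) on the recovered UMIs, other scalings, constants and filters, the array pair as a block, the methods' t-test and each mouse left out were alternatives. Single genes in regions outside the choice had an exact two-sided permutation test (SciPy 1.17.1), added after seeing that they fell below the filter. Ratios of pooled UMIs and shares have exact 95% intervals that cover counting error only. The fit and the permutation test were tested on simulated data. Promoters came from RefSeq, where 2 of the 4 class II genes are shown. Mice carried no replicate number.

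The class II genes and all gene lists were chosen with earlier results of these data known. Named from the lists were B2m, H2-K1, H2-D1, up to 4 called genes a comparison with the smallest p and, after their values were seen, H2-DMa, H2-DMb1, Ciita, Ifng, Ctss and the markers named for their UMIs.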

Additional observations from a re-analysis of the deposited data

Results flagged for a closer look

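Among the 5 controls of a region, 8 of 30 sets of levels had 1 mouse far from the rest by Dixon's ratio (above 0.71 for 5 mice). Sets with 0 in every control are among the 30 and could not be flagged. A set with UMIs in a single control has a ratio of 1 whatever its level. The usual rate of about 1 in 20 by chance is for continuous values and does not hold for counts this sparse. GqVeh mouse 785 was the one in 5 of them. In its SN Cd74 was 2.11 per 10000 on 12 UMIs and H2-Ab1 0.877 on 5 UMIs, where the next controls had 0.605 and 0.202. In its thalamus Cd74 was 0.261 per 10000 on 7 UMIs and the sum of the 4 genes 0.521 on 14 UMIs, where the next controls had 0.05 and 0.150. The remaining flags rest on 1 or 2 UMIs. They are H2-Aa and H2-Eb1 in the VTA of GqVeh mouse 784 (0.0491 per 10000 each), H2-Aa in the white matter of GqVeh mouse 785 (0.0501) and H2-Ab1 in the white matter of GqVeh mouse 802 (0.0568).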

How the results depend on the processing

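Counts of class II genes called are given here for every comparison, with 0 in the fits of the text unless stated. Those of GqCNO against controls in the SN and VTA are descriptions. In the SN the 2 calls became 0 with the stricter filter and 0 by the methods' t-test after adjustment (2 unadjusted), and stayed 2 with any mouse left out. In the VTA the 3 calls became 0 without a filter, 1 with the stricter filter and 0 by the methods' t-test (0 unadjusted), ranged from 1 (without 781) to 4 (without 801) with a mouse left out, and were 2 without 785 or 804. In the thalamus the count stayed 0 with any control left out. The fits there without GqCNO mouse 781 or 804 leave 1 GqCNO animal and are not counted. For Cd74, edgeR gave 1 in SN against thalamus and 1 in VTA against thalamus, and all 8 mice in place of the 5 controls gave 4 in SN against thalamus. Left-out mice gave 0 in all other comparisons. The Cd74 share ranged from 42.1% to 56.3% in the SN, 40.4% to 48.8% in the VTA, 34.4% (without 781) to 56.4% in the thalamus and 48.1% to 56.5% in the CP of GqCNO mice, and from 27.3% to 48.0%, 70.0% to 75.0%, 25.0% to 44.4% and 33.3% to 40% in controls (same order of regions). No called difference changed sign. Where the setting itself does not show why a count moved, the cause was not tested. No paired analysis between groups was possible because the mice carry no shared replicate numbers. The array pair as a block stands in for it, with 2 SN and 4 VTA calls. Comparisons between regions had the mouse as a block. The count of all genes called, 40 in the SN and 96 in the VTA for GqCNO against controls, was 76 and 141 by edgeR, 8 and 70 with the stricter filter, 37 and 8 without a filter, 47 and 41 with the smaller constant, 0 and 0 by the methods' t-test, and 16 to 75 and 37 to 116 with a mouse left out. For VTA against thalamus it was 911, and 2117 by edgeR. For GqVeh against CNO alone the SN count was 4, and 9 by edgeR, while the VTA count was 5, and 48 by edgeR. The small UMI counts of most columns limit every value.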
